A study of Mus musculus with 16 samples.

Results

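The elastic fibre genes were 10 genes chosen by name, *Fbn1*, *Mfap4*, *Mfap5*, *Eln*, *Fbln1*, *Fbln2*, *Fbln5*, *Emilin1*, *Lox* and *Loxl1*. Each symbol matched 1 of the 50600 gene identifiers in the count table, and all 10 were among the 22155 genes with at least 10 counts that were tested. They were followed in epidermal cells from the footpad of 16 female C57/B6J mice, with 1 library per mouse and 4 mice per group. In the first group the mice received, from 5 wk of age and for 3 wk, a purified synthetic diet to which indole-3-carbinol was added at 200 ppm (I3C diet), a plant compound that gives rise to ligands of the aryl hydrocarbon receptor (AhR), and their footpad was then injected with PBS (vehicle, 50 μl). The second group had the I3C diet and 50 μg of papain, a plant protease that acts as an allergen, in the same volume. The third and the fourth group had the same synthetic diet without I3C (AhR-poor diet) for the same time, and were injected with vehicle or with papain. Cells were taken 6 hr after the injection, after the epidermis had been parted from the dermis with dispase and dead cells had been removed. Mice on the same diet shared a cage, so diet and cage cannot be told apart.

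Elastic fibres give skin its recoil. Each fibre has a core of elastin within a sheath of microfibrils, which are built from fibrillin and carry microfibril-associated proteins. Fibulins and emilins join the core to the sheath, and lysyl oxidases cross-link elastin. In skin, these genes are expressed mainly by fibroblasts of the dermis and by cells of vessel walls.

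The libraries held 22500821 to 51844375 counts. Levels are given as CPM, the counts relative to a library's total after TMM scaling. The detection floor was set at 3 counts, or 0.0569 to 0.130 CPM, and covers counting error alone. The cells carried high levels of keratinocyte markers in every library, with a summed level of 20714.8 to 36310.2 CPM for the 6 basal markers. Markers of other cells were also present. The summed level of the 12 dermal fibroblast markers was 73.2 to 99.9 CPM with vehicle and 15.4 to 33.2 CPM with papain on the I3C diet, and 171 to 265 CPM and 319 to 751 CPM without I3C. With Col6a1 left out, a choice made after the values had been seen, that of the other 11 ranged from 10.2 to 14.1 CPM on the I3C diet with vehicle, from 2.43 to 11.9 CPM on the I3C diet with papain, from 109.3 to 192 CPM without I3C with vehicle and from 287 to 708 CPM without I3C with papain. None of the 12 was at 0 in all libraries of a group. These are bulk samples, in which fewer cells of a type and less RNA per cell cannot be told apart.

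A promoter window from RefSeq (GRCm38.p6), from 250 bases before to 50 bases after a transcription start, was at hand for 5 of the 10 genes, *Fbn1*, *Fbln1*, *Fbln2*, *Fbln5* and *Emilin1*, and not for *Eln*, *Mfap4*, *Mfap5*, *Lox* and *Loxl1*. Since the diets differed in AhR ligands, the windows were searched for the core of the AhR response element, GCGTG, on both strands, where the other strand reads CACGC. The core was present in 32.4% of all 32851 windows of this length, and 4 or more matches were present in 1.33%. The windows shown belong to the member with 4 matches, to the member whose level differed least between diets and to the member with the highest fold between the diets with papain among those above the floor, with the matches in capitals. The Fbln5 window is at chr12:101819070-101819369 on the minus strand, the Fbln1 window at chr15:85205699-85205998 on the plus strand and the Fbn1 window at chr2:125506389-125506688 on the minus strand.
Fbln5: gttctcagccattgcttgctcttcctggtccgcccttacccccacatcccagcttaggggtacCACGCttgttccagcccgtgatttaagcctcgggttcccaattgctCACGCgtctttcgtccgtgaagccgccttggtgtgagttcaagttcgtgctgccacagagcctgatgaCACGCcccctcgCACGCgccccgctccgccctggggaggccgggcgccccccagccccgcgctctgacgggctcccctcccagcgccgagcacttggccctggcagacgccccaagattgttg
Fbln1: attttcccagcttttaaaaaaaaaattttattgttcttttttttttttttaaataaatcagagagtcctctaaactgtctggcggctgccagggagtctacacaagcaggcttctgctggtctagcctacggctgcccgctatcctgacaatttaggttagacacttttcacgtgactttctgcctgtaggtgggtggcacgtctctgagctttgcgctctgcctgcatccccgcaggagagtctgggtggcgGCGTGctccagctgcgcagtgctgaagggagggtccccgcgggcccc
Fbn1: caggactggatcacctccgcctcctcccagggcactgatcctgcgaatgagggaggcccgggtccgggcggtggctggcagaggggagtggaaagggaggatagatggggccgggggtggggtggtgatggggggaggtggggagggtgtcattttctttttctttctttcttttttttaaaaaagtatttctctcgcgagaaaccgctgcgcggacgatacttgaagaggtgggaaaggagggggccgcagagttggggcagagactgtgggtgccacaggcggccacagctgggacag
The Fbln5 window held 4 matches, all read as CACGC, while a second Fbln5 start held 0. Of the bases in the window with 4 matches 65.7% were G or C, against a median of 52.7% over all windows. The shares of windows with matches were not adjusted for this. Fbln1 had 1 match, which its 2 overlapping windows share, Emilin1 had 1, and Fbn1 and Fbln2 had 0. A match is a stretch of letters and not a bound site, and binding was not measured here.

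The first question was whether the diet alone changed these genes. With vehicle, 7 of the 10 genes rose without I3C, relative to the I3C diet, and none fell. Among all genes tested, 1.59% were called higher and 0 lower. The test was the quasi-likelihood F test of edgeR, and a call needed a p below 0.01 after Benjamini-Hochberg adjustment over all genes tested and a log2 fold change beyond 1 in either direction. The 7 were *Fbn1*, *Mfap5*, *Eln*, *Fbln2*, *Fbln5*, *Lox* and *Loxl1*, and *Mfap4*, *Emilin1* and *Fbln1* did not pass. The 4 AhR-poor libraries lay above the 4 I3C libraries for 9 of the 10 genes, against 6.45% of all genes, with 1.67% the other way round, and for the same number each of the 8 AhR-poor libraries exceeded each of the 8 I3C libraries, against 2.83% of all genes. Among the papain libraries, 9 of the 10 were called higher without I3C and none lower, against 7.15% of all genes called higher and 0.0993% lower, and the 4 AhR-poor libraries lay above the 4 I3C libraries for all 10, against 12.5% of all genes. The median log2 fold change of the 10 genes was 3.60 with vehicle and 6.15 with papain, and that of all genes tested was -0.01 and 0.01. With the 3 genes whose I3C libraries were all at the floor set to their lower bound, the medians were 3.22 and 5.29.

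**Figure D1:**
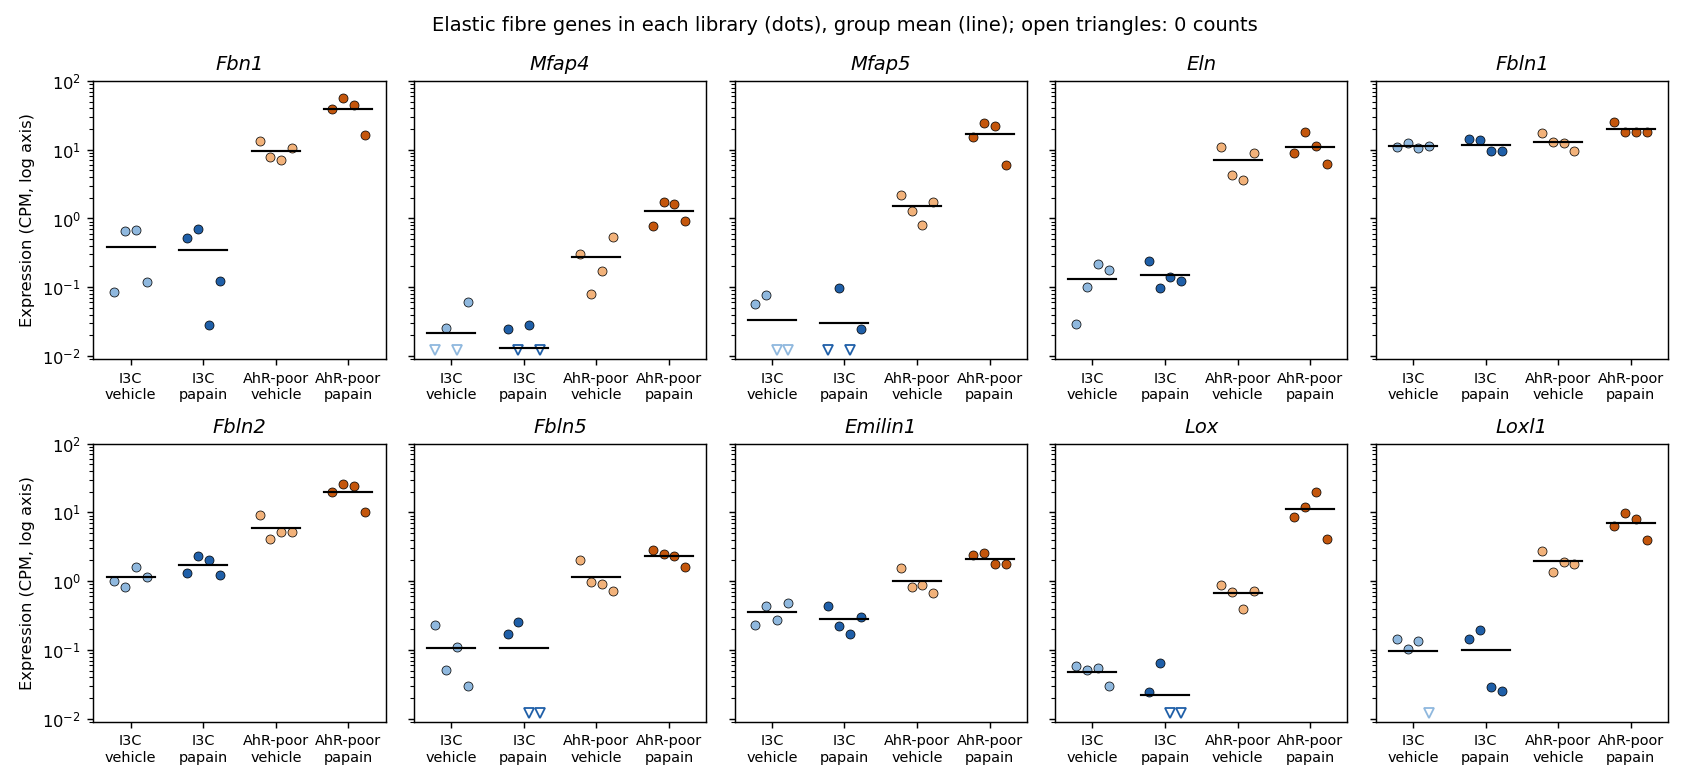
Expression of each elastic fibre gene in CPM on a log axis, with 1 dot per library, a line at the mean of the 4 libraries of a group and an open triangle for a library with 0 counts. The AhR-poor libraries lie above the I3C libraries for 9 genes, and Fbln1 stays between 9.47 and 25.5 CPM in all 16 libraries.

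*Fbn1*, on chr2:125300594-125507993 on the minus strand, encodes fibrillin-1, the main building block of microfibrils. On the I3C diet it was at 0.0861, 0.663, 0.680 and 0.120 CPM with vehicle and at 0.512, 0.706, 0.0285 and 0.124 CPM with papain. On the AhR-poor diet it was at 13.4, 7.73, 7.12 and 10.5 CPM with vehicle and at 38.8, 57.5, 44.9 and 16.3 CPM with papain. The 8 AhR-poor libraries were all above the 8 I3C libraries, and all 4 AhR-poor papain libraries were above the 4 AhR-poor vehicle libraries. The log2 fold change between diets was 4.59 ± 0.62 (SE, edgeR, adjusted p = 0.000814) with vehicle, or 25.0-fold between the means, and 6.87 ± 0.64 (adjusted p = 7.37e-06) with papain, or 114.98-fold. The exons of *Fbn1* share 2442 bases with Gm9913 on the other strand, and *Eln*, *Mfap4* and *Lox* share 267, 89 and 30 bases with such neighbours. The strand setting of the counting is not given in the sources used here, so these reads cannot be assigned with certainty.

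*Mfap5*, on chr6:122505845-122529290, encodes a glycoprotein of microfibrils. It was almost undetected on the I3C diet, with 2, 3, 0 and 0 counts in the vehicle libraries and 0, 3, 0 and 1 counts in the papain libraries, all at or under the floor. It reached, on the AhR-poor diet, 2.18, 1.30, 0.816 and 1.72 CPM with vehicle and 15.4, 24.6, 22.4 and 6.09 CPM with papain. The lower bound against the floor was therefore at least 18.0-fold higher with vehicle (adjusted p = 0.000954) and at least 208-fold higher with papain (adjusted p = 6.33e-07). *Mfap5* had the highest lower bound of the 3 genes at the floor in both comparisons.

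*Mfap4*, on chr11:61485431-61488900, encodes another microfibril-associated glycoprotein. On the I3C diet it had 0, 1, 0 and 2 counts with vehicle and 1, 0, 1 and 0 counts with papain. The AhR-poor libraries were at 0.2997, 0.0794, 0.173 and 0.536 CPM with vehicle, where 1 library was at the floor, and at 0.788, 1.76, 1.60 and 0.925 CPM with papain. The ranges of the diets did not overlap. The lower bound was at least 15.4-fold higher with papain (adjusted p = 7.17e-06), and with vehicle it was at least 3.26-fold (2.20-fold without library T103) with an adjusted p of 0.0159, which missed the threshold. Its adjusted p with vehicle was 0.00569 by DESeq2, 0.00947 when every gene with at least 1 count was tested and 0.00689 without library T101.

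*Eln*, on chr5:134702593-134747323 on the minus strand, encodes elastin itself. Its levels on the I3C diet were 0.0287, 0.102, 0.218 and 0.180 CPM with vehicle and 0.244, 0.0962, 0.143 and 0.124 CPM with papain. Without I3C they were 11.1, 4.34, 3.59 and 8.93 CPM with vehicle and 8.91, 18.1, 11.4 and 6.15 CPM with papain. All 8 AhR-poor libraries were above all 8 I3C libraries, and the vehicle and papain libraries of the AhR-poor diet overlapped. The log2 fold change between diets was 5.69 ± 0.54 (edgeR, adjusted p = 4.21e-05) with vehicle and 6.14 ± 0.53 (adjusted p = 1.26e-06) with papain, or 52.9-fold and 73.4-fold between the means. With vehicle this was the highest fold between means among the 7 members that allow one.

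**Figure D2:**
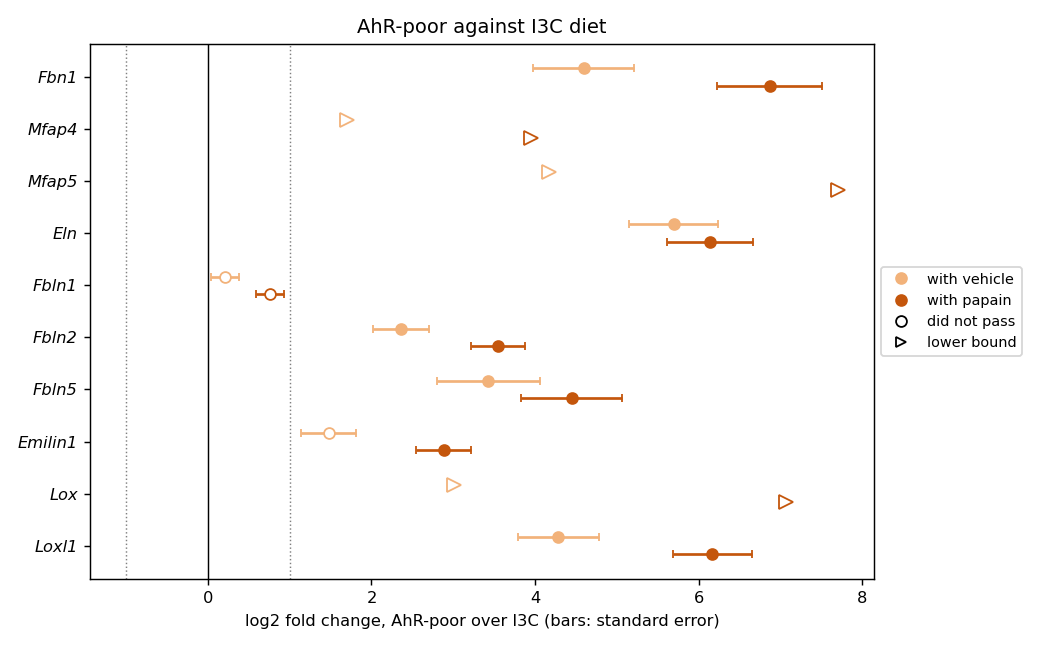
Log2 fold change of the AhR-poor over the I3C diet for each gene, with vehicle and with papain, where bars are standard errors, filled dots passed the test and dotted lines mark the minimum fold change. Triangles are the lower bounds of Mfap4, Mfap5 and Lox, whose I3C libraries were at the floor, and Fbln1 lies between 0 and 1 in both comparisons.

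The 3 fibulins differed from each other. *Fbln5*, on chr12:101746565-101819055 on the minus strand, encodes the fibulin that binds elastin and lysyl oxidases during fibre assembly. It was at 0.230, 0.0510, 0.109 and 0.0300 CPM with vehicle and at 0.171, 0.257, 0 and 0 CPM with papain on the I3C diet, and at 2.02, 0.980, 0.915 and 0.724 CPM with vehicle and 2.81, 2.52, 2.29 and 1.60 CPM with papain on the AhR-poor diet. The diets did not overlap, and the log2 fold change was 3.43 ± 0.63 (edgeR, adjusted p = 0.00370) with vehicle and 4.45 ± 0.61 (adjusted p = 6.06e-05) with papain. The call with vehicle was lost without library T100, T109, T110 or T111, with an adjusted p of at most 0.0208. The log2 fold change was 4.11 with vehicle without library T108 and 5.21 with papain without library T113, more than 1.5 times the fold with all libraries.

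*Fbln2*, on chr6:91212455-91272540, encodes a fibulin of basement membranes and elastic fibres. Its I3C libraries were at 1.01, 0.816, 1.63 and 1.14 CPM with vehicle and 1.32, 2.34, 2.06 and 1.22 CPM with papain, well above the floor. Its AhR-poor libraries were at 9.04, 4.16, 5.19 and 5.20 CPM with vehicle and 19.8, 26.3, 24.1 and 10.2 CPM with papain. All 8 were above the I3C libraries, with a log2 fold change of 2.36 ± 0.34 (edgeR, adjusted p = 0.000779) with vehicle and 3.55 ± 0.34 (adjusted p = 2.63e-06) with papain.

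*Fbln1*, on chr15:85205949-85286535, encodes a fibulin of basement membranes, vessel walls and elastic fibres, and was the exception. It was at 11.1, 12.3, 10.5 and 11.3 CPM with vehicle and 14.2, 13.95, 9.65 and 9.4996 CPM with papain on the I3C diet, where it made up 77.2 to 85.8% of the summed CPM of the 10 genes. Without I3C it was at 17.3, 13.1, 12.4 and 9.47 CPM with vehicle, which overlapped the I3C libraries, and at 25.5, 18.4, 18.3 and 18.1 CPM with papain, which did not, and its share was 23.5 to 37.9% and 10.6 to 26.2%. The log2 fold change was 0.21 ± 0.17 (edgeR, adjusted p = 0.712) with vehicle. With papain it was 0.76 ± 0.17 with an adjusted p of 0.00406, so the p passed and the minimum fold change was not reached.

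*Emilin1*, on chr5:30913402-30921277, encodes a glycoprotein found between elastin and microfibrils. On the I3C diet it was at 0.230, 0.433, 0.272 and 0.480 CPM with vehicle and 0.438, 0.224, 0.171 and 0.298 CPM with papain. Mice without I3C had 1.58, 0.821, 0.890 and 0.670 CPM with vehicle and 2.41, 2.56, 1.77 and 1.77 CPM with papain, again with no overlap between diets. The log2 fold change was 2.88 ± 0.33 (edgeR, adjusted p = 7.44e-06) with papain and 1.47 ± 0.33 with vehicle, where the adjusted p of 0.0158 missed the threshold and that of DESeq2, 0.00155, did not.

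The 2 cross-linking enzymes were both low on the I3C diet. *Lox*, on chr18:52516067-52529867 on the minus strand, encodes lysyl oxidase. It had 2, 2, 2 and 1 counts with vehicle and 1, 2, 0 and 0 counts with papain on the I3C diet, all under the floor, and was at 0.872, 0.688, 0.396 and 0.724 CPM with vehicle and 8.45, 11.9, 19.9 and 4.05 CPM with papain on the AhR-poor diet. The diets did not overlap, and every AhR-poor papain library was above every AhR-poor vehicle library. The lower bound was at least 8.02-fold higher with vehicle (edgeR, adjusted p = 0.00343) and at least 134-fold higher with papain (adjusted p = 1.70e-07), or 98.5-fold without library T107. The call with vehicle was lost without library T100, T103, T108, T109, T110 or T111, with an adjusted p of at most 0.0204.

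*Loxl1*, on chr9:58287738-58313186 on the minus strand, encodes the lysyl oxidase that binds fibulin-5 and is directed at elastin. It was at 0.144, 0.102, 0.136 and 0 CPM with vehicle and 0.146, 0.192, 0.0285 and 0.0249 CPM with papain on the I3C diet. Its AhR-poor libraries were at 2.75, 1.38, 1.90 and 1.77 CPM with vehicle and 6.40, 9.83, 8.01 and 4.02 CPM with papain. All 8 AhR-poor libraries were above the I3C libraries, with a log2 fold change of 4.28 ± 0.50 (edgeR, adjusted p = 8.92e-05) with vehicle and 6.16 ± 0.48 (adjusted p = 2.16e-07) with papain.

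Levels can be compared between genes only per length, as CPM per kilobase of exon. On the I3C diet *Fbln1* was first, at 2.59 ± 0.18 CPM per kilobase (SD, n = 4) with vehicle and 2.71 ± 0.60 with papain, and *Fbln2* second, at 0.180 ± 0.055 and 0.272 ± 0.087. These 2 did not overlap with each other or with the third gene, *Emilin1*, and every neighbour below that overlapped. With vehicle and no I3C *Fbln1* was first at 2.99 ± 0.74 CPM per kilobase, without overlap with *Fbln2* at 0.926 ± 0.338, and *Lox* was last at 0.140 ± 0.042. With papain the order changed, and *Mfap5* at 4.78 ± 2.33 CPM per kilobase, *Fbln1* at 4.595 ± 0.83, *Fbn1* at 3.25 ± 1.42, *Fbln2* at 3.15 ± 1.12 and *Lox* at 2.31 ± 1.40 led. In that group each of the 10 genes overlapped its neighbour in the order.

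The next question was whether papain changed these genes on each diet. Without I3C, 7 of the 10 rose with papain and none fell, where 6.04% of all genes tested were called higher and 2.42% lower, and for 8 of the 10 each papain library exceeded each vehicle library, against 17.0% of all genes. The median log2 fold change was 1.81 for the 10 genes and -0.00 for all genes tested. The highest rises were those of *Lox*, by 4.04 ± 0.41 on the log2 scale (edgeR, adjusted p = 1.42e-06) or 16.5-fold between the means, and of *Mfap5*, by 3.51 ± 0.44 (adjusted p = 1.75e-05) or 11.4-fold. *Mfap4* rose by 2.21 ± 0.46, *Fbn1* by 2.02 ± 0.46, *Loxl1* by 1.86 ± 0.34, *Fbln2* by 1.77 ± 0.30 and *Emilin1* by 1.11 ± 0.29. *Fbln5*, at 0.997 ± 0.46 with an adjusted p of 0.109, and *Eln*, at 0.68 ± 0.36 with an adjusted p of 0.177, did not pass, and *Fbln1*, at 0.62 ± 0.17 with an adjusted p of 0.00917, did not reach the minimum fold change.

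The calls of *Fbn1* and *Emilin1* were each lost without some single libraries, while their log2 fold changes stayed between 1.78 and 2.28 and between 0.98 and 1.43. That of *Fbn1* (adjusted p = 0.00357) had an adjusted p of 0.0149 by DESeq2 and lost its call without any 1 of the libraries T101, T102, T103, T104, T105 and T107, with an adjusted p of at most 0.0152. That of *Emilin1* (adjusted p = 0.00616) lost its call without T101, T102, T103, T104 or T105, with an adjusted p of at most 0.0254.

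On the I3C diet none of the 10 genes was called in either direction by edgeR, where 3.69% of all genes were called higher and 5.29% lower, and none had an unadjusted p below 0.05, against 43.3% of all genes. DESeq2 also called 0, where it called 4.1% of all genes higher and 5.45% lower. The vehicle and papain libraries overlapped for all 10, where 16.2% of all genes were higher and 17.3% lower with papain without overlap. *Lox*, *Mfap4* and *Mfap5* were at or under the floor in all 8 libraries, so no fold is given for them. *Fbln1* and *Fbln2*, which were detected well above the floor, had log2 fold changes of 0.07 ± 0.17 and 0.58 ± 0.36, and for the other 5 a change was not detectable at these counts, with standard errors of 0.38 to 0.85 on the log2 scale.

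**Figure D3:**
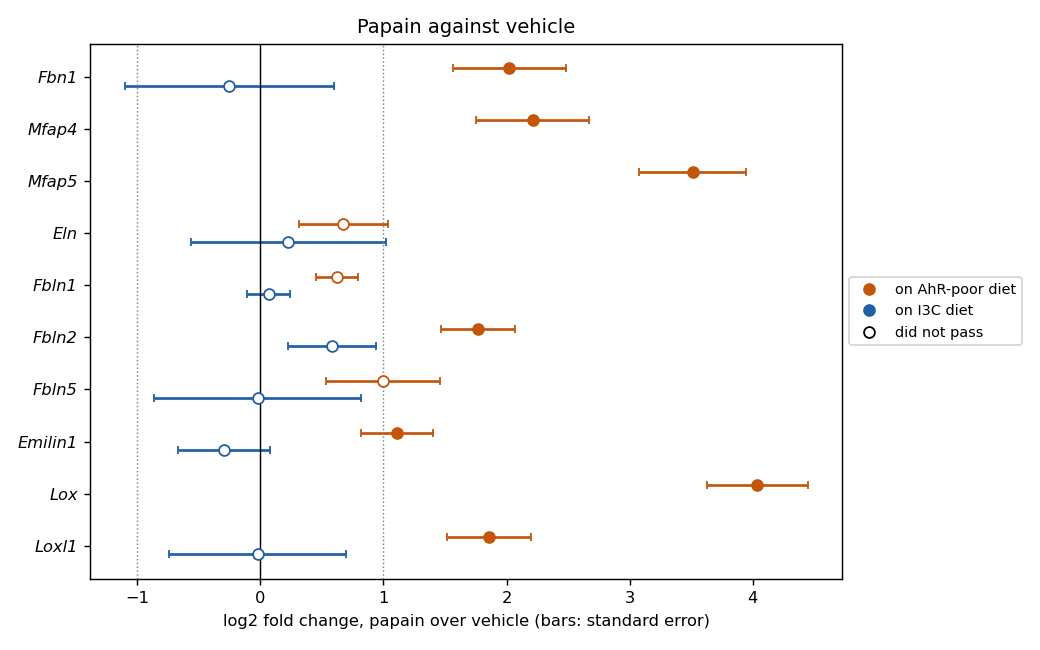
Log2 fold change of papain over vehicle on each diet, with standard errors as bars, filled dots for genes that passed the test and dotted lines at the minimum fold change. On the AhR-poor diet 7 genes passed, on the I3C diet none did, and Mfap4, Mfap5 and Lox have no value on the I3C diet because both groups were at the floor.

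Whether the papain response differed between diets was tested by the interaction of diet and papain. By edgeR none of the 10 genes was called, where 0.0181% of all genes were called higher, while 6 had an unadjusted p below 0.05, against 13.5% of all genes, and DESeq2 called 1, *Lox*, against 0.903% of all genes called higher and 0.0226% lower. The median interaction of the 10 was 1.64 on the log2 scale and that of all genes 0.03. The lowest p was that of *Lox* (edgeR, adjusted p = 0.135, and 0.000681 by DESeq2), whose I3C groups were both at the floor, so that the size of its interaction is set by the small counts there. Among genes above the floor, *Fbn1* had an interaction of 2.27 ± 0.97 (adjusted p = 0.337), *Emilin1* of 1.41 ± 0.48 (adjusted p = 0.224), *Fbln2* of 1.19 ± 0.47 (adjusted p = 0.295) and *Eln* of 0.45 ± 0.90 (adjusted p = 0.872). A different response on the 2 diets was therefore not established by this test for any member.

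Within a group, the same libraries were often at the ends of the range for many members. In the AhR-poor papain group library T105 was the highest for 7 of the 10 genes and T112 the lowest for 9, and in the AhR-poor vehicle group T100 was the highest for 9. The same libraries were at the ends of the fibroblast marker sum, at 751 CPM in T105, 319 CPM in T112 and 265 CPM in T100 over all 12 markers. *Lox* was an exception in being highest in T107, and *Fbln1* and *Fbln5* in being highest in T104. The summed CPM of the 10 members was 12.9 to 14.7 on the I3C diet with vehicle, 11.3 to 17.9 with papain, 33.4 to 60.5 on the AhR-poor diet with vehicle and 69.2 to 173 with papain.

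Markers of some other cell types moved with the diet in the same direction. Among all genes tested, 1.59% were called higher on the AhR-poor diet with vehicle and 7.15% with papain. With papain on that diet, 6.04% were called higher. Of the 12 dermal fibroblast markers 10 were called higher on the AhR-poor diet with vehicle and 12 with papain, and 11 of 12 were called higher with papain on the AhR-poor diet. Of the 8 endothelial markers 8 were called higher on the AhR-poor diet with either treatment, and 1 with papain on that diet. Their summed level was 0.632 to 2.93 CPM with vehicle and 0.742 to 2.34 CPM with papain on the I3C diet, and 14.2 to 43.7 CPM and 26.1 to 65.1 CPM on the AhR-poor diet. Of the 7 markers of pericytes and smooth muscle, which also make elastin, 1 was called higher on the AhR-poor diet with vehicle and 4 with papain, and *Pdgfrb*, the platelet-derived growth factor receptor of pericytes, was 9.29-fold higher with vehicle and at least 51.3-fold higher with papain. The others called with papain were *Des* (at least 10.4-fold), *Tagln* (6.69-fold) and *Rgs5* (at least 2.47-fold, or 1.54-fold without library T107). Des was at 0 in the I3C vehicle libraries. The smooth muscle markers *Acta2* (0.936-fold with vehicle, 1.29-fold with papain) and *Myh11* (1.71-fold and 1.15-fold) were not called between diets. With papain *Acta2* averaged 14.7 CPM on the I3C diet and 19.0 CPM without I3C, with overlap. The summed level of the 7, 69.6 to 117 CPM, overlapped between all 4 groups but was mostly *Cspg4*, at 40.0 to 110.2 CPM and not called between diets. Without *Cspg4*, a choice made after the values had been seen, the sum was 3.40 to 6.69 CPM with vehicle and 8.53 to 21.0 CPM with papain on the I3C diet, and 3.997 to 8.61 CPM and 25.3 to 29.6 CPM on the AhR-poor diet, so that the diets overlapped with vehicle and not with papain. The 5 neutrophil markers summed to 37.6 to 176 CPM with papain and no I3C and 20.1 to 29.5 CPM with papain and I3C, against at most 2.47 CPM in any vehicle library, and Ly6g was at 0 in the 3 groups other than AhR-poor with papain. Of the 5, 0 were called between diets with vehicle and 3 with papain, *Retnlg* (97.0-fold higher on the AhR-poor diet), *Csf3r* (78.3-fold) and *Mmp8* (42.8-fold). *Cxcr2*, at 19.3 to 29.5 CPM on the I3C diet and 23.6 to 42.3 CPM without I3C after papain, made up most of the I3C sum, and without it, again a choice made after the values had been seen, the other 4 summed to 0.0571 to 2.83 CPM and 14.1 to 133 CPM. None of the 12 basal and suprabasal keratinocyte markers was called in any of the 4 comparisons. With papain, 3 of the 6 basal markers were lower in every AhR-poor library than in the I3C libraries, against 12.3% of all genes. These were *Trp63* (0.763-fold), *Col17a1* (0.727-fold) and *Itga6* (0.723-fold), and no basal or suprabasal marker was higher without overlap there. Of the 3 tenocyte and the 3 Schwann cell markers 0 were called higher on the AhR-poor diet with vehicle and 1 of each with papain, with Mkx at 0 on the I3C diet with papain. Of the 4 Langerhans cell markers 0 were called in either diet comparison. Among all genes tested, 6.45% with vehicle and 12.5% with papain had all AhR-poor libraries above the I3C libraries. That was so with either treatment for 3 of the 4 markers. These were *Cd207*, 3.08-fold higher with vehicle and 2.42-fold with papain, *Cd74* (2.43-fold and 2.31-fold) and *H2-Ab1* (2.75-fold and 2.35-fold), with adjusted p values of 0.0106 to 0.0307 by edgeR. The summed level of the 4 was 233 to 414 CPM with vehicle and 294 to 561 CPM with papain on the I3C diet, and 579.9 to 642 CPM and 667 to 812 CPM on the AhR-poor diet. The 1 of 4 adipocyte markers that could be tested was not called in either diet comparison. The part of these cells in the differences of the elastic fibre genes was not tested.

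Relative to the summed fibroblast markers, the members did not all keep their place between treatments on the AhR-poor diet. The markers themselves moved unequally with papain on the AhR-poor diet. Between the means, *Pdgfra* was 13.7-fold higher, *Prrx1* 6.01-fold, *Dcn* 4.75-fold and *Col3a1* 3.38-fold, while Col6a1 fell to 0.607-fold. *Lox* was 16.5-fold and *Mfap5* 11.4-fold higher, so *Mfap5* rose less than *Pdgfra*. For the AhR-poor diet, each member was expressed per 100 CPM of the 12 fibroblast markers. On this scale *Lox* went from 0.3296, 0.402, 0.226 and 0.359 with vehicle to 1.49, 1.58, 2.81 and 1.27 with papain, 5.44-fold higher between the means. *Mfap5* went from 0.824, 0.757, 0.467 and 0.8502 to 2.73, 3.28, 3.17 and 1.91, 3.83-fold higher. *Loxl1* went from 0.952 ± 0.135 (SD, n = 4) to 1.209 ± 0.0894, 1.27-fold higher. For these 3 genes all papain libraries were above all vehicle libraries, and the other 7 overlapped between treatments. Among all genes tested, 2.36% were above and 53.4% below in every papain library, with the summed level of the markers itself higher with papain. These shares therefore depend on the scale. *Fbn1* was at 4.72 ± 0.52 with vehicle and 6.497 ± 1.07 with papain.

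The picture depended in part on 1 marker, Col6a1. On the AhR-poor diet it averaged 66.9 CPM with vehicle and 40.6 CPM with papain, against the trend of the other 11. On the I3C diet it averaged 73.6 CPM with vehicle and 17.2 CPM with papain, so with papain Col6a1 was 2.36-fold higher without I3C. Without Col6a1, a choice made after the values had been seen, *Lox* and *Mfap5* were still higher in every papain library, 3.89-fold and 2.75-fold between the means. Among all genes tested, 1.77% were higher and 66.6% lower in every papain library on this scale. *Loxl1* overlapped, and *Fbn1* was at 7.10 ± 0.60 and 6.999 ± 1.03.

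The mean ratios of *Eln*, *Fbln1*, *Fbln5* and *Emilin1* moved the other way, to 0.570, 0.586, 0.749 and 0.820 of those with vehicle with all 12 markers. With all 12 markers, *Eln* was at 4.20, 2.53, 2.05 and 4.42 with vehicle and at 1.58, 2.404, 1.62 and 1.93 with papain, and *Fbln1* at 6.54, 7.66, 7.07 and 4.69 with vehicle and at 4.51, 2.44, 2.59 and 5.68 with papain, so that both overlapped between treatments, where 53.4% of all genes tested were below in every papain library. Without Col6a1 all papain libraries were below all vehicle libraries for *Eln* and *Fbln1*, but so they were for 66.6% of all genes tested, with the summed level of the markers itself higher with papain. Between diets, the members other than *Fbln1* were summed per 100 CPM of the 11 markers. With vehicle they were at 14.5 to 30.5 with I3C and 19.2 to 23.2 without it. With papain they were at 24.1 to 101.176 and 17.8 to 21.9, on small I3C counts. Per CPM of all 12 markers they were higher without I3C. With vehicle this ratio was 0.0204 to 0.0424 with I3C and 0.120 to 0.163 without it. With papain it was 0.0865 to 0.1596 and 0.1602 to 0.206. The ratios carry no test, and their denominators differ between libraries.

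**Figure D4:**
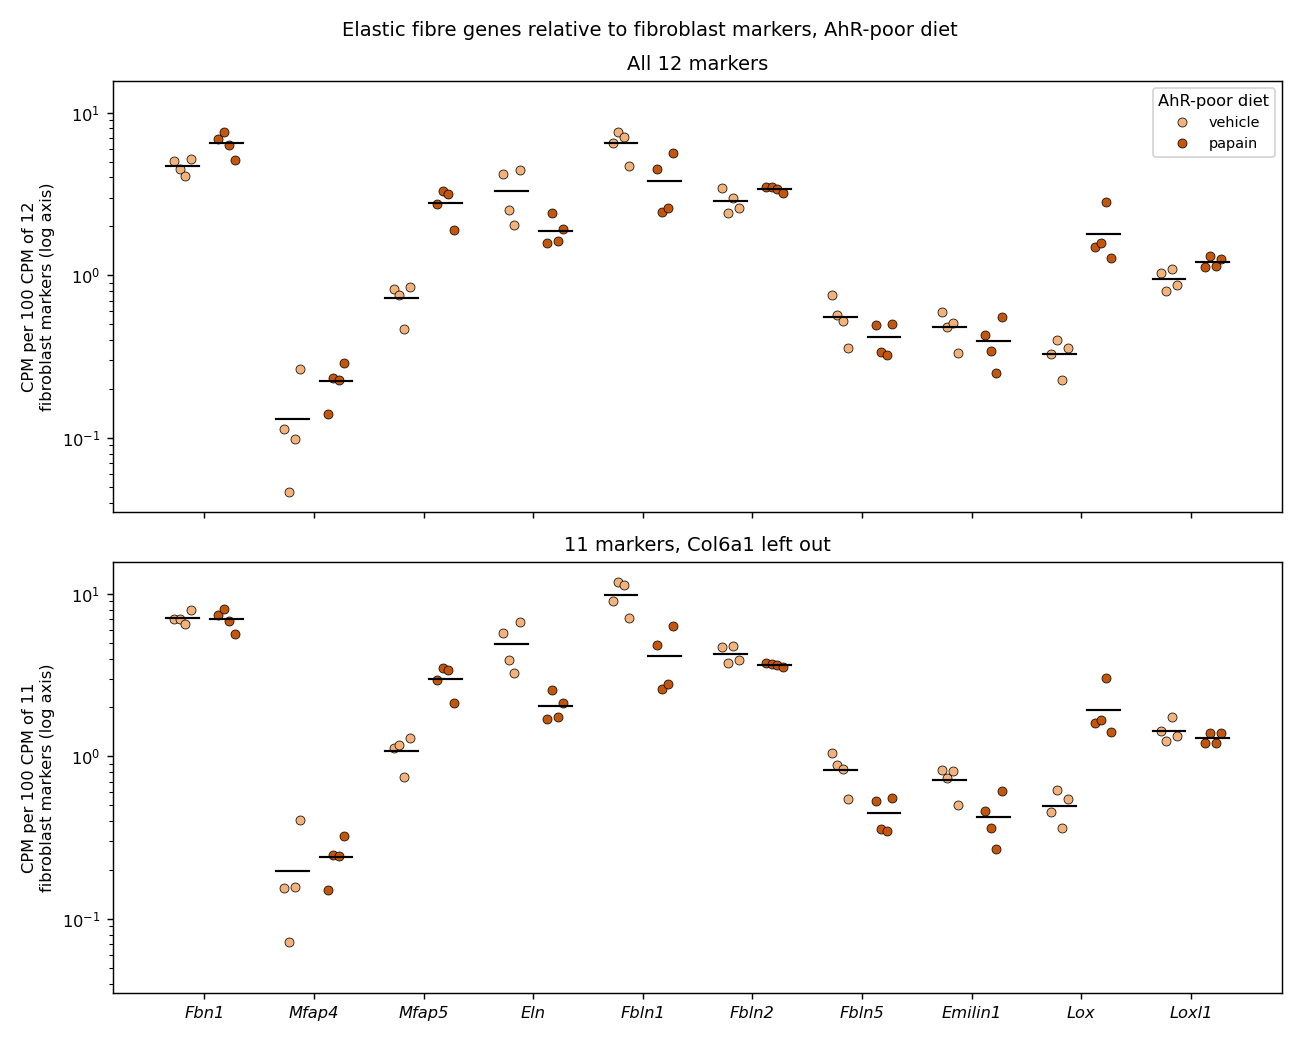
Level of each elastic fibre gene on the AhR-poor diet per 100 CPM of all 12 fibroblast markers (top) and of 11 without Col6a1 (bottom), on a log axis, with 1 dot per library and a line at the mean of 4. Lox and Mfap5 are higher with papain in every library in both panels, Loxl1 only in the top panel, and Eln and Fbln1 overlap in the top panel and are lower with papain in the bottom panel.

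The other genes of elastic fibre biology were described by 6 lists. Their counts stand beside the 1.59% of all genes tested that were called higher on the AhR-poor diet with vehicle, and 7.15% with papain. Of 10 microfibril partners, which include the second fibrillin, latent TGF-β binding proteins and ADAMTS-like proteins, 3 were called higher on the AhR-poor diet with papain and 0 with vehicle, with a median log2 fold change of 1.22 and 0.54. The 3 were *Ltbp2* (2.45 ± 0.32), *Adamts10* (1.58 ± 0.28) and *Adamtsl4* (1.19 ± 0.21). Of 4 other fibulins 1 was called with papain, *Efemp1* (1.46 ± 0.14), which encodes fibulin-3, and 0 with vehicle. Of the 4 other emilins and multimerins 3 were called with papain, namely *Emilin2* (5.33 ± 0.66), *Mmrn1* (5.08 ± 0.74), and *Mmrn2*, a gene of endothelial cells, which was at least 25.7-fold higher, and 2 with vehicle. Of 4 genes for other lysyl oxidases and Bmp1, the protease that activates lysyl oxidase, 2 were called with papain and 2 with vehicle. With papain these were *Loxl3*, at least 31.9-fold higher, and *Loxl2* (4.77 ± 0.41).

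Of 9 proteases that can cut elastin, 7 were tested and *Elane* and *Ctsg* had too few counts. Among the papain libraries, 2 of the 7 were called higher without I3C, *Ctsk* (5.08 ± 0.41), a collagen- and elastin-cutting cathepsin, and *Ctss* (2.75 ± 0.39), a cathepsin of antigen-presenting cells, and 1 with vehicle. Of 8 integrin chains that take part in binding the members, 3 were called with papain, *Itga9* (4.57 ± 0.60), *Itgb3* (3.29 ± 0.34) and *Itga4* (2.14 ± 0.35), and 1 with vehicle. None of the genes tested in the 6 lists was called lower on the AhR-poor diet in either comparison. The same held for nearly all genes tested, with 0 called lower with vehicle and 0.0993% with papain.

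Some relatives of the members, unlike the members themselves, were called with papain on both diets. Among the 4 other fibulins, on the I3C diet 3 fell and 1 rose with papain, where 5.29% of all genes tested were called lower and 3.69% higher. *Efemp2*, which encodes fibulin-4, a binding partner of lysyl oxidase, went from 0.667 ± 0.038 (SD, n = 4) to 5.90 ± 0.54 CPM with I3C and from 1.005 ± 0.33 to 8.64 ± 0.81 CPM without it, which on the log2 scale were changes of 3.14 ± 0.20 and 3.10 ± 0.19. *Ltbp1*, a latent TGF-β binding protein of microfibrils, went from 12.6 ± 2.59 to 59.5 ± 9.72 CPM and from 12.6 ± 1.45 to 49.3 ± 4.67 CPM. *Efemp1* fell by 2.95 ± 0.15 on the log2 scale on the I3C diet and by 1.31 ± 0.13 on the AhR-poor diet. *Efemp2* and *Ltbp1* were named here after their values had been seen.

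The 5 genes outside the members named here had the profile most like the median of the 10 members over the 16 libraries, out of 13019 genes with a mean of at least 1 CPM. The measure was the root mean square difference of centred log2 CPM. They were *Eng* at 0.380, *Ccn5* at 0.447, *Cadm3* at 0.449, *Prelp* at 0.454 and *Fn1* at 0.480. *Eng* encodes endoglin, a TGF-β coreceptor of endothelial cells, *Prelp* a small leucine-rich proteoglycan and *Fn1* fibronectin. *Fn1* was at 2.96 ± 0.88 (SD, n = 4) and 5.29 ± 4.50 CPM with vehicle and papain on the I3C diet and at 30.7 ± 6.83 and 116 ± 38.5 CPM on the AhR-poor diet. Of the members themselves *Loxl1* was the nearest to their median, at 0.481, and *Fbln1* the farthest, at 1.92.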

How the data were processed

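Whole-number read counts per Ensembl gene were deposited by the authors for 16 libraries, without normalization, after alignment with STAR to mm10. The counting tool, the annotation release and the strand setting are not given in the sources used here. Identifiers were matched to symbols in GENCODE M21 (GRCm38), 50376 of 50600. Groups came from the labels alone. Replicates were separate mice, and pairs within a group differed by more than counting error (chi-square per degree of freedom of at least 9.43). Genes whose counts summed to at least 10 (22155) were fitted in edgeR 4.0.16 (R 4.3.3) with TMM factors and 1 mean per group, and tested with the robust quasi-likelihood F test. Standard errors were taken from the fold change and F, and are approximate. Folds against a group with no library above 3 counts are lower bounds, computed against 3 counts per library. The model was tested on simulated data, with changes placed only in genes with a mean above 1 CPM and the spread between libraries capped. Genes near the floor were therefore not covered by that test. As alternatives, RLE factors, no scaling factors, 3 other count filters, DESeq2 1.42.0, only the libraries compared, other thresholds and fits without each library in turn were run.

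The members, the 6 pathway lists and the markers of 10 cell types (endothelial cells, dermal fibroblasts, tenocytes, pericytes with smooth muscle, Schwann cells, adipocytes, neutrophils, Langerhans cells and basal and suprabasal keratinocytes) were chosen with earlier results of these data known. Named genes were all members, in each pathway list up to 3 genes with the highest fold among those called between diets with papain, and the 5 nearest profiles. The levels per fibroblast marker were computed on all 12 markers and, after the values had been seen, also on 11 of them. Promoter windows came from RefSeq.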

Additional observations from a re-analysis of the deposited data

Results flagged for a closer look

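In the AhR-poor papain group, *Fbln1* stood apart in library T104, at 25.5 CPM against 18.1, 18.3 and 18.4 CPM in the other libraries, a gap of 0.966 of the group's range. This was 1 of the 40 groups of a member that were examined for an outlying library, and chance marks about 1 in 20. The papain response of *Efemp1*, a fibulin outside the 10 members, differed between the diets, with an interaction of 1.65 on the log2 scale (edgeR, adjusted p = 0.00127), and it was lower with papain in all 4 libraries on both diets.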

How the results depend on the processing

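No paired analysis was possible because no replicate code occurs in more than 1 group. Requiring at least 10 counts in every library left 2 members in the test, *Fbln1* and *Fbln2*, and the number called was then 1 in the diet comparison with vehicle, 1 with papain and 1 in the papain response without I3C, which follows from the genes removed. DESeq2 called 1 interaction, *Lox*, where edgeR called 0, and the cause was not tested. Leaving out 1 library at a time gave 5 to 8 members called between diets with vehicle, 9 in every case with papain, 5 to 7 in the papain response without I3C, 0 in that with I3C and 0 for the interaction. The changes of direction were all in log2 fold changes for papain on the I3C diet, none of which had passed. *Fbln5* went from -0.021 to 0.010 with DESeq2 and to 0.015 with only the libraries compared, and *Loxl1* from -0.021 to 0.017 with only the libraries compared. With 1 library left out these values ranged from -0.79 to 0.14 for *Fbn1*, from -0.12 to 0.57 for *Eln*, from -0.042 to 0.16 for *Fbln1*, from -0.78 to 0.66 for *Fbln5* and from -0.49 to 0.32 for *Loxl1*, and the cause was not tested. Summed over the 10 members, the level per 100 CPM of fibroblast markers was 22.4 with papain and 20.5 with vehicle on the AhR-poor diet with all 12 markers, and 24.2 and 30.9 with Col6a1 left out. Depth limits the members on the I3C diet, where *Lox*, *Mfap4* and *Mfap5* were at or under 3 counts in every library. Each I3C library had 3 to 6 of the 10 members at or under the floor. *Loxl1*, *Fbln5*, *Eln* and *Fbn1* had at most 6, 8, 10 and 26 counts in an I3C library, so their folds between diets rest on small counts.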
